A study of Homo sapiens with 3 samples.

Results

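Tight junctions seal the space between neighbouring epithelial cells and keep their apical and basolateral membranes apart. Claudins, membrane proteins that span the bilayer several times, form the strands that set which ions and solutes pass; the MARVEL proteins occludin and tricellulin shape those strands and the points where cells meet, junctional adhesion molecules tether the membranes, and zonula occludens (ZO) scaffolds tie all of them to actin. The genes described here are the 8 tight junction genes CLDN1, CLDN4, CLDN7 and CLDN12 (claudins), OCLN (occludin), MARVELD2 (tricellulin), TJP1 (ZO-1) and F11R (JAM-A), chosen by symbol and matched to the Entrez identifiers of the deposited tables. All 8 were found among 18331 identifiers, each was listed in all 3 libraries, and all 8 passed the filter on low counts.

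The data are 3 poly(A) RNA sequencing libraries of PC-3, a line of human prostate cancer cells that has long been in culture, grown in RPMI1640 with serum. Every library was made 7 days after infection with lentivirus that expressed a short hairpin RNA (shRNA): 2 libraries, numbered 1 and 2, are labelled KMT2D shRNA, with a genotype of KMT2D deficiency, and 1 is labelled control shRNA, with KMT2D normal. KMT2D encodes a histone methyltransferase of enhancers. Whether libraries 1 and 2 are separate cultures, or carry different hairpins, is not in the labels, so p-values measure only the spread between these libraries, which may be technical.

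The labels were checked on the targeted gene first. KMT2D was no lower in the libraries labelled KMT2D shRNA than in the control: it had 562 counts (5.53 FPKM) in library 1, 699 (6.93 FPKM) in library 2 and 551 (5.02 FPKM) in the control. Its log2 fold change was 0.29 (SE 0.18, edgeR adjusted p = 0.227), and with a trend of fold change on transcript length removed it turned to -0.59 (edgeR adjusted p = 0.0215). With trends on length and GC content both removed the fold change was -0.40 (edgeR adjusted p = 0.111), so its direction depended on the fit. Directions below are therefore those of the libraries labelled KMT2D shRNA, and a loss of KMT2D is not assumed. Library totals lay between 5123817 and 5559504 estimated counts. The control also stood apart in interferon-induced genes: ISG15, a ubiquitin-like protein, was at 4613 FPKM there against 160 and 142 FPKM in libraries 1 and 2, and the part of this state in the junction genes was not tested. Of the epithelial markers, KRT8, KRT18 and KRT19 were all abundant and their sum with EPCAM and CDH1 was 538, 553 and 907 FPKM in library 1, library 2 and the control. KLK3, KLK2, the endothelial VWF and CDH5 and the leukocyte CD3E were listed in no library. The summed endothelial markers ran from 15.1 to 25.8 FPKM, fibroblast markers from 69.4 to 73.6 FPKM, carried by COL1A1, and leukocyte markers from 41.4 to 102 FPKM, carried by CD68 and LYZ. The leukocyte sum was highest in the control. Their part in the results below was not tested.

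Among the 8 genes, the claudins that passed the test were CLDN4 and CLDN7, both lower in the libraries labelled KMT2D shRNA. Their promoter windows are shown for that reason. Each is the 250 bases before a transcript start, from RefSeq on GRCh38.p14, written 5′ to 3′ on the strand of the gene. The build named for the deposited data is hg19, per the submitters' processing notes, and no position was carried between builds. RefSeq gave windows for 7 of the 8 genes, 12 windows in all; F11R was not matched. CLDN4 is shown from chr7:73830746-73830995 (plus strand). CLDN7 has listed starts at chr17:7263214-7263463 and chr17:7262479-7262728 (minus strand). Capitals mark CAGGTG, the E-box that SNAI and ZEB repressors bind, and CGGAAG, an ETS-type core, on either strand.
CLDN4: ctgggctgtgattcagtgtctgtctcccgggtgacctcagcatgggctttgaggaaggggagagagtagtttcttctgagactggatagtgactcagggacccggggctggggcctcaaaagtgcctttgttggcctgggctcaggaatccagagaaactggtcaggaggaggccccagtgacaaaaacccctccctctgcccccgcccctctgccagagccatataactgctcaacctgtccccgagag
CLDN7 start 1: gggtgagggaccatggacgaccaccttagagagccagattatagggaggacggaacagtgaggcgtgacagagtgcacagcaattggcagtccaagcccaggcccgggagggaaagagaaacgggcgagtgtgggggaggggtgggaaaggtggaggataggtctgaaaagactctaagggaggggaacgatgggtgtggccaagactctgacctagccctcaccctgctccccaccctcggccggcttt
CLDN7 start 2: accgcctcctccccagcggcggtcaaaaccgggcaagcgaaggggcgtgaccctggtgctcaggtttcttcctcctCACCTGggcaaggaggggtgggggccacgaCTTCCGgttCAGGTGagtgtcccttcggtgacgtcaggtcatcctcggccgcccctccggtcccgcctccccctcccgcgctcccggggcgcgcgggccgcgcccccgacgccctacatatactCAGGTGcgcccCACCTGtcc

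The window of CLDN4 held none of these letters, whereas the second window of CLDN7 held 4 E-box matches, beginning 174, 135, 20 and 9 bases before the start, and 1 ETS match 144 bases before it. E-box letters stood in 4 of the 12 windows, belonging to CLDN7, OCLN and TJP1, and in 17.5% of 34943 windows of all RefSeq starts. ETS letters stood in 2 of the 12 windows and in 16.4% of all, and the grainyhead-type AACNGGTT in 0 of the 12 and in 1.49% of all. The GC box GGGCGG stood in 8 of the 12 and in 42.5% of all, and the KLF-type GGGTGTG in 2 of the 12 and in 6.63% of all. Neither of these last motifs is marked in the windows shown. A match describes letters in a window and shows no binding.

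Levels of the 8 genes are compared per length, as FPKM (the authors' read level scaled to transcript length and library total). CLDN4 stood far above the others in every library, at 107.58, 82.01 and 175.94 FPKM in library 1, library 2 and the control. Its lowest value was above the highest of any other of the 8 genes, the 22.56 FPKM of TJP1. F11R and TJP1 came next with means over the 3 libraries of 21.3 and 20.7 FPKM, and their ranges overlapped. CLDN12 followed at 12.6 FPKM and CLDN1 at 6.38 FPKM, with no overlap between CLDN12 and either neighbour. CLDN7 (3.25 FPKM), OCLN (2.56 FPKM) and MARVELD2 (2.24 FPKM) were lowest. The ranges of CLDN1 and CLDN7 overlapped, as did those of CLDN7 and OCLN and of OCLN and MARVELD2, so the order at the low end is not set beyond the spread. CLDN4 was thus the most abundant of these transcripts and the MARVEL proteins were among the least. In bulk RNA, fewer cells of a type and less RNA per cell cannot be told apart.

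**Figure D1:**
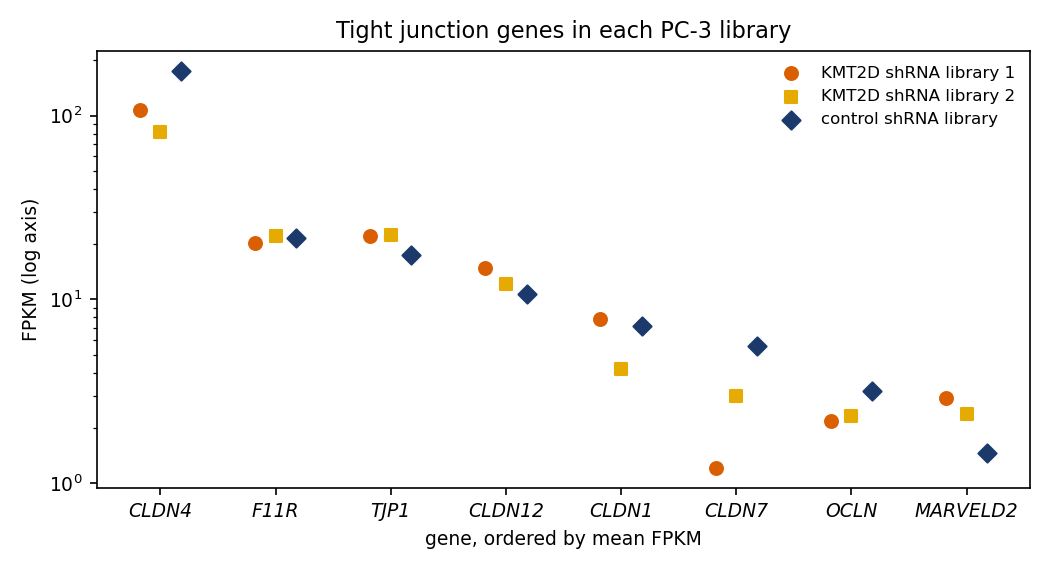
FPKM (log axis) of the 8 tight junction genes, ordered by mean, with 1 point per library: circles for KMT2D shRNA library 1, squares for library 2 and diamonds for the control. CLDN4 lies above all others in each library, and the control diamond is the highest point for CLDN4, CLDN7 and OCLN and the lowest for CLDN12, TJP1 and MARVELD2.

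The comparison asked which of the 8 genes differ with the hairpin that PC-3 received. CLDN4 and CLDN7 fell, none of the 8 rose and 6 did not pass (edgeR quasi-likelihood, adjusted p under 0.05). Over all 14016 genes tested 31.1% passed, 14.5% as fallen and 16.5% as risen, so 2 of 8 is no more than the background share. The median log2 fold change was -0.16 over the 8 genes and -0.01 over all genes tested. In 6 of the 8 genes the control lay outside the range of libraries 1 and 2, above it in 3 and below it in 3, and the same was so for 84.3% of all genes tested (42.8% with the control above and 41.5% with it below).

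CLDN4, a barrier-forming claudin that also serves as a receptor for Clostridium perfringens enterotoxin, rested on 1019 counts in library 1, 772 in library 2 and 1803 in the control. Both labelled libraries were lower than the control, and library 2 was the lower of the 2. Scaled to a common library size (tested genes, with TMM factors), without length, these were 195, 152 and 327 CPM, or 173 ± 30.1 CPM (SD, n = 2) in the labelled group. Relative to the control, CLDN4 stood at 0.595 (95% interval 0.55 to 0.643) in library 1 and at 0.465 (0.426 to 0.506) in library 2. Such an interval holds the counting error alone and leaves out variation between libraries. It may understate even that error, because PCR copies without molecular identifiers are not independent molecules. The log2 fold change of CLDN4 was -0.92 (SE 0.17, edgeR adjusted p = 3.53e-05). The fall in CLDN4 also lowered its share of the FPKM summed over all listed claudins, from 62.0% in the control to 54.0% in library 1 and 48.9% in library 2.

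CLDN7, a claudin that pairs with the adhesion molecule EpCAM on the lateral membrane, had only 9 counts in library 1, 23 in library 2 and 49 in the control. The control was the highest, and library 1 was lower than library 2. These were 1.72, 4.53 and 8.90 CPM, or 3.13 ± 1.99 CPM (SD, n = 2) in the labelled group. Library 1 had 0.193 of the control level (95% interval 0.0835 to 0.398), library 2 had 0.509 of it (0.296 to 0.852), and library 2 was 2.63 times library 1 (1.17 to 6.47). The log2 fold change of CLDN7 was -1.51 (SE 0.43, edgeR adjusted p = 0.00634). In the RefSeq annotation CLDN7 overlaps ELP5, and since no strand-marking step is described, reads of that overlap cannot be told apart.

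CLDN1, a claudin needed for the barrier of the epidermis, split the labelled libraries. It had 140 counts (7.83 FPKM) in library 1, 74 (4.16 FPKM) in library 2 and 138 (7.14 FPKM) in the control. Library 1 was level with the control and library 2 was low, with a ratio to the control of 1.07 (95% interval 0.838 to 1.36) in the first and 0.582 (0.433 to 0.777) in the other. Library 2 was 0.545 of library 1 (0.406 to 0.727), a gap beyond counting error between libraries of the same label. The log2 fold change over the group was -0.27 (SE 0.24) and did not pass (edgeR adjusted p = 0.414).

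CLDN12, a claudin without the C-terminal motif that binds ZO scaffolds, had 281, 228 and 218 counts in library 1, library 2 and the control. Both labelled libraries were above the control, library 1 by a ratio of 1.36 (95% interval 1.13 to 1.63) and library 2 by a ratio of 1.13, whose interval (0.938 to 1.37) included no difference. Its log2 fold change was 0.32 (SE 0.20, edgeR adjusted p = 0.224). The ratio of CLDN4 to CLDN12 within a library, both as FPKM, was 7.22 in library 1, 6.75 in library 2 and 16.5 in the control, highest in the control. The transcripts of CLDN4 (1846 bases) and CLDN12 (3641 bases) differ in length, and the part of the length trend in this ratio was not tested.

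OCLN, a strand protein that recruits signalling partners, had 69 counts in library 1, 70 in library 2 and 102 in the control, or 2.18, 2.31 and 3.18 FPKM. The labelled libraries were nearly equal and both below the control. The log2 fold change of OCLN was -0.46 (SE 0.25) and did not pass (edgeR adjusted p = 0.17). MARVELD2, the tricellulin of corners where several cells meet, had 34, 27 and 18 counts, or 2.89, 2.37 and 1.46 FPKM. It stood on the other side, with both labelled libraries above the control, and its log2 fold change of 0.85 (SE 0.46) did not pass (edgeR adjusted p = 0.159). On these few counts MARVELD2 stood at 1.99 times the control in library 1 (95% interval 1.09 to 3.74) and at 1.63 times in library 2 (0.864 to 3.14), so the counting interval included no difference in library 2 only.

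TJP1, the ZO-1 scaffold that carries claudin tails to actin, was well covered, with 816 counts in library 1, 821 in library 2 and 688 in the control. The labelled libraries were alike, at 22.19 and 22.56 FPKM, and above the control at 17.44 FPKM. Library 1 stood at 1.25 times the control (95% interval 1.13 to 1.38) and library 2 at 1.29 times (1.17 to 1.43), yet the log2 fold change of 0.35 (SE 0.17) did not pass over all genes (edgeR adjusted p = 0.127). F11R, the adhesion molecule JAM-A that recruits polarity proteins, had 512, 552 and 583 counts. The control lay between the labelled libraries at 21.47 FPKM, against 20.41 and 22.14 FPKM, and the log2 fold change was -0.04 (SE 0.17, edgeR adjusted p = 0.904), within -0.38 to 0.31 at 2 SE.

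The fold change of a gene followed the length of its transcript across the transcriptome, with a Spearman coefficient of 0.456 for library 1 and 0.46 for library 2 over 14016 genes, which are not independent replicates, against 0.0307 between libraries 1 and 2. The 8 transcripts run from 1526 bases (CLDN7) to 7031 bases (TJP1), so the trend bears on them unequally. At the length of CLDN4 (1846 bases) the trend stood at -0.24 in library 1 and -0.23 in library 2, and the log2 ratios of CLDN4 were -0.75 and -1.10. At the length of TJP1 the trend was 0.47 and 0.44, and TJP1 itself stood at 0.32 and 0.37, below it in both libraries. OCLN (5896 bases) lay at -0.48 and -0.42 where the trend was 0.38 and 0.35. Fold changes also followed GC content, with Spearman coefficients of -0.316 for library 1 and -0.226 for library 2. Between libraries 1 and 2 the GC coefficient was -0.222, so libraries of the same label differed in GC though hardly in length.

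**Figure D2:**
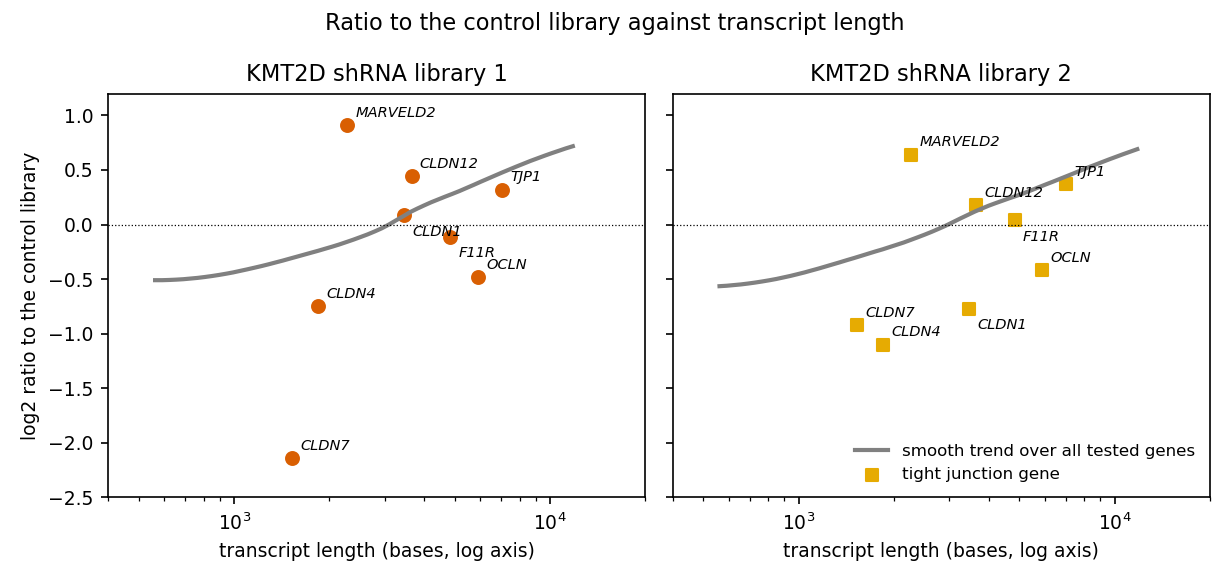
Log2 ratio to the control library against transcript length in bases (log axis), for KMT2D shRNA library 1 (left, circles) and library 2 (right, squares), with the smooth trend over all 14016 tested genes as a grey line. CLDN4, CLDN7, OCLN, F11R and TJP1 lie below the line in both panels, and MARVELD2 and CLDN12 lie above it in both. CLDN1 lies on the line in library 1 (0.09) and below it in library 2 (-0.77).

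Once the length trend was taken out, 17.7% of all genes tested passed (8.64% risen, 9.05% fallen) and 2 of the 8 passed, of which CLDN4 was shared with the uncorrected fit. CLDN4 still fell (log2 fold change -0.68, edgeR adjusted p = 0.00708), OCLN now fell (-0.82, edgeR adjusted p = 0.022), and the call of CLDN7 was lost (-1.21, edgeR adjusted p = 0.0624). TJP1 turned from 0.35 to -0.11 (edgeR adjusted p = 0.695) and MARVELD2 was at 1.00 (edgeR adjusted p = 0.133). With trends on length and on GC content removed together, the call of CLDN4 was lost as well (-0.54, edgeR adjusted p = 0.0683) and OCLN alone of the 8 passed (-0.87, edgeR adjusted p = 0.0298), against 14.4% of all genes tested (7.39% risen, 7.02% fallen). DESeq2, without correction, called CLDN4 alone of the 8 (DESeq2 adjusted p = 0.00297), against 10.8% of the genes it gave an adjusted p (6.53% risen, 4.27% fallen). CLDN4, CLDN7, OCLN and CLDN1 were lower, and CLDN12 and MARVELD2 higher, in each of these fits. F11R was also below 0 in each, from -0.33 to -0.04, and passed in none.

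**Figure D3:**
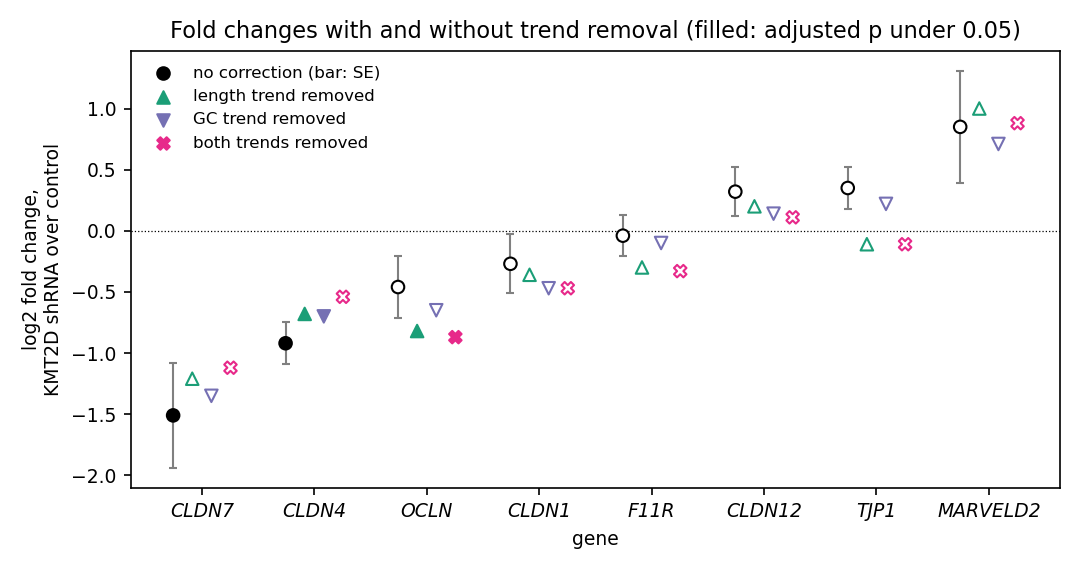
Log2 fold change of the libraries labelled KMT2D shRNA over the control for each of the 8 genes, without correction (circles, bars are SE) and with the length trend, the GC trend or both removed (triangles, inverted triangles and crosses); filled symbols have an edgeR adjusted p under 0.05. CLDN4 is filled in 3 of the 4 fits, CLDN7 without correction, and OCLN where length was removed, alone or with GC.

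Reads of a few of these genes are shared with other genes. The estimated counts of CLDN4, OCLN, MARVELD2 and F11R were fractional in all 3 libraries, those of the other 4 genes were whole, and CLDN4 and F11R have 1 listed transcript each. RefSeq lists OCLNP1, a transcribed pseudogene of OCLN, and places CLDN16 over part of CLDN1. How the authors' counting split such reads is not given in the sources used here, so these levels are uncertain to that extent. The deposited length of CLDN7, which varies with the mix of its 3 transcripts, was 1462, 1527 and 1589 bases in library 1, library 2 and the control, and that of OCLN was 6086, 5905 and 5698 bases.

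The wider claudin family is given by its counts, beside 14.5% fallen and 16.5% risen over all genes tested, and whether it differs from them was not tested. Of 20 claudin genes on the lists used, 19 were listed in some library and 12 were tested; 4 fell (CLDN3, CLDN4, CLDN7 and CLDN15), 1 rose (CLDN11) and the median log2 fold change was -0.48, with 10 of the 12 below 0. CLDN3, a close relative of CLDN4 and likewise a receptor of the enterotoxin, was second in level with 24.07 FPKM in library 1, 23.53 in library 2 and 36.73 in the control. CLDN3 had a log2 fold change of -0.64 (SE 0.20) and fell (edgeR adjusted p = 0.0103). CLDN15, a pore-forming claudin, fell by 0.82 (SE 0.25, edgeR adjusted p = 0.0096). CLDN11, a claudin of myelin and of Sertoli cells, went the other way, from 11.70 FPKM in the control to 18.72 and 20.66 FPKM in libraries 1 and 2 (log2 fold change 0.73, SE 0.20, edgeR adjusted p = 0.00363). Claudin transcripts are short (median 2391 bases over the 12), and with the length trend removed CLDN4 alone still fell, where 9.05% of all genes did, while CLDN11 still rose (0.79, edgeR adjusted p = 0.00555). With both trends removed no claudin fell, against 7.02% of all genes, and CLDN11 still rose (0.78, edgeR adjusted p = 0.0157).

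**Figure D4:**
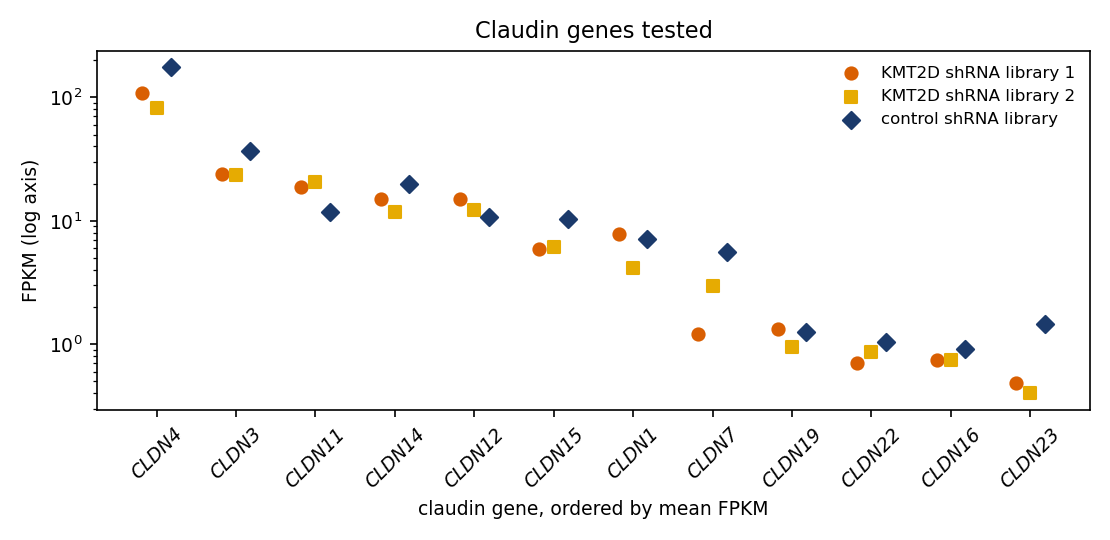
FPKM (log axis) of the 12 claudin genes that were tested, ordered by mean, with circles for KMT2D shRNA library 1, squares for library 2 and diamonds for the control. The control is the lowest point for CLDN11 and CLDN12, lies between the labelled libraries for CLDN1 and CLDN19, and is the highest for the other claudins shown.

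The other tight junction genes are the scaffolds, polarity proteins, adhesion molecules and signalling partners of the 8, with the remaining claudins. Of 61 listed, 49 were tested, of which 13 rose and 6 fell (median log2 fold change 0.13), beside 16.5% risen and 14.5% fallen over all genes tested. No polarity protein rose and 1 of 8 tested fell, and none of the 4 tested relatives of F11R passed. No scaffold fell, and 5 of 9 tested rose (median 0.71). MPDZ, a multi-PDZ scaffold that binds claudin tails, rose by 1.61 (SE 0.29, edgeR adjusted p = 1.92e-05), and MAGI1, another PDZ scaffold, by 1.35 (SE 0.27, edgeR adjusted p = 0.000128). The kinases ROCK2 and ROCK1, which drive contraction of the actomyosin ring, rose by 1.22 and 1.16, the angiomotin-family AMOTL1 by 1.33 and the vesicle GTPase RAB3B by 1.34 on the log2 scale. ARHGEF2, a junction-bound activator of RhoA, fell by 0.98 (SE 0.17, edgeR adjusted p = 1.41e-05), and PARD6B, an adaptor of the PAR polarity complex, by 1.10 (SE 0.31, edgeR adjusted p = 0.00482). SYMPK, an RNA-processing protein found at junctions, fell by 0.48 (edgeR adjusted p = 0.0311). LSR, the angulin that recruits tricellulin to cell corners, fell by 0.52, close to the threshold (edgeR adjusted p = 0.049). DESeq2 called neither SYMPK (DESeq2 adjusted p = 0.361) nor LSR (DESeq2 adjusted p = 0.508). The 9 tested scaffolds are long (median 7020 bases), and with the length trend removed 2 of them, MAGI1 (0.89, edgeR adjusted p = 0.0211) and MPDZ (1.12, edgeR adjusted p = 0.00848), still rose. In that fit 8 of the 13 genes that rose and 3 of the 6 that fell kept their call, the latter being ARHGEF2, PARD6B and SYMPK, while MYL9 and RAB13 rose and AMOTL2 fell anew; over all genes 8.64% rose and 9.05% fell in that fit. The most abundant of these other genes by mean FPKM were CDK4, RAB13 and YBX3, none of which passed without that correction.

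**Figure D5:**
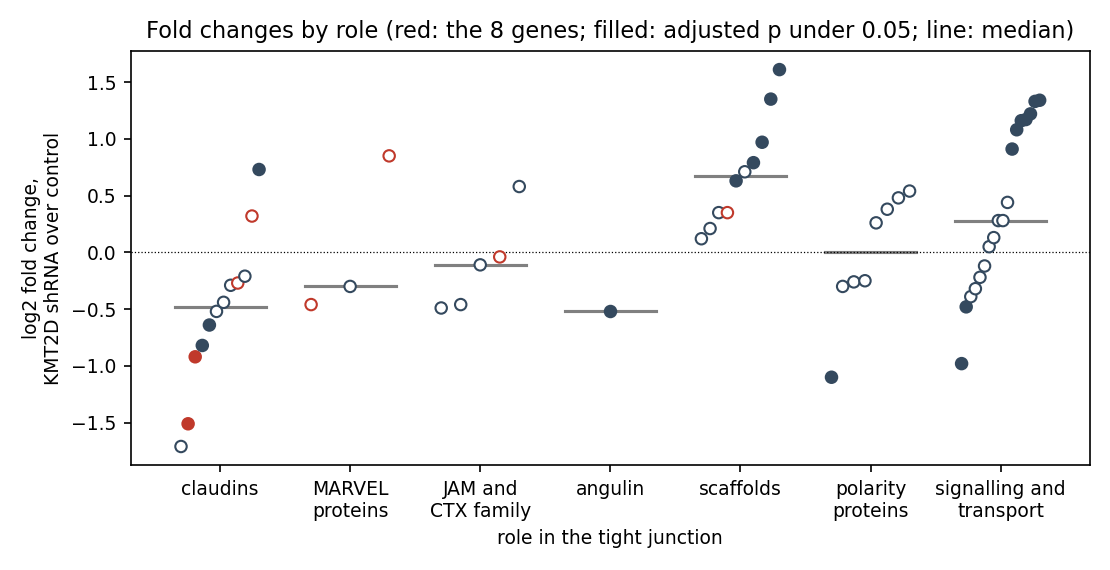
Log2 fold change of the libraries labelled KMT2D shRNA over the control for each tested tight junction gene by role, with the 8 genes in red, filled points at an edgeR adjusted p under 0.05 and a line at the median of each role. Claudins lie mostly below 0 and scaffolds above it; TJP1, among the scaffolds, is at 0.35.

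By the distance between pairs of log2 ratios over the 3 libraries, the gene of that list nearest to CLDN4 was ARHGEF2, at -1.01 and -0.93 against -0.75 and -1.10 (distance 0.31). OCLN lay nearest to SYMPK (0.06), MARVELD2 to AFDN (0.05), CLDN12 to YBX3 (0.05), F11R to WNK4 (0.13) and CLDN1 to ESAM (0.37). CLDN7 had no near neighbour among the 43 candidates, the closest being PARD6B at 0.88. These distances share a control library and are given as a description.

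Of 21 tested regulators and partners of junction genes, 3 fell and 1 rose, a smaller share than the 31.1% called over all genes tested. ELF3, an epithelial ETS-family transcription factor, fell from 24.06 FPKM in the control to 6.32 and 9.57 FPKM in libraries 1 and 2 (log2 fold change -1.62, SE 0.20; edgeR adjusted p = 1.08e-08). KLF4, a zinc finger factor of epithelial differentiation, fell by 1.29 on the log2 scale, and SPINT2, an inhibitor of the membrane proteases that cleave EpCAM with CLDN7, fell by 0.84 (SE 0.17, edgeR adjusted p = 0.000181). The call of SPINT2 was lost with length and GC trends both removed (-0.52, edgeR adjusted p = 0.062). ZEB1, an E-box repressor of junction genes, rose by 0.50 (SE 0.19, edgeR adjusted p = 0.0365) but did not pass once length was accounted for (0.13, edgeR adjusted p = 0.659). The other repressors tested did not pass and lay on both sides of the control, with SNAI1 at 0.34, SNAI2 at 0.52, ZEB2 at -1.12, TWIST1 at -0.43 and TWIST2 at -0.67. With the length trend removed SNAI2 rose (0.70, edgeR adjusted p = 0.0187) and ZEB2 fell (-1.68, edgeR adjusted p = 0.0114). With length and GC trends both removed, SNAI2 no longer passed and 0 of the 21 rose, where 7.39% of all genes did. ZEB2 still fell in that fit. EPCAM, the partner of CLDN7, had 101, 84 and 135 counts in library 1, library 2 and the control and did not pass (log2 fold change -0.45, SE 0.23, edgeR adjusted p = 0.127). GRHL2, which activates claudin genes in many epithelia, had only 7, 5 and 5 counts and was not tested.

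At the neighbouring adherens junction and desmosome, 8 of 19 tested genes rose and 2 fell (median 0.50), beside 16.5% risen and 14.5% fallen over all genes tested. CDH2, or N-cadherin, rose by 1.18 (SE 0.19, edgeR adjusted p = 2.86e-06). So did the desmosomal cadherins DSG2 and DSC3 by 0.89 and 0.81. NECTIN1 and NECTIN3, adhesion receptors, rose by 0.94 and 0.64, and PKP4, an armadillo-repeat plaque protein, by 0.80. PKP3, a desmosome plaque protein, fell by 1.28 (SE 0.18, edgeR adjusted p = 1.66e-07) and the adhesion receptor NECTIN2 by 0.99. CTNNA1, the alpha-catenin that links cadherins to actin, had 14, 9 and 3 counts, whereas CTNNB1 had 1798, 1844 and 1710 counts in library 1, library 2 and the control. With the length trend removed 4 of the 8 genes still rose (CDH2, DSG2, NECTIN1 and PKP4), both that fell still fell, and DSP and PPL also fell. Over all genes tested 8.64% rose and 9.05% fell in that fit. With GC removed as well, CDH2 (0.91, edgeR adjusted p = 0.00472) and NECTIN1 (0.72, edgeR adjusted p = 0.0344) still rose, while DSG2 (edgeR adjusted p = 0.053) and PKP4 (edgeR adjusted p = 0.0612) did not pass. There 2 of the 19 rose and 3 fell (PKP3, NECTIN2 and DSP), beside 7.39% risen and 7.02% fallen over all genes tested.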

How the data were processed

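PC-3 cells were profiled in 3 libraries (KMT2D shRNA 2, control shRNA 1). Per the labels' protocols, oligo(dT)-selected RNA was fragmented, primed at random and sequenced on a BGISEQ-500. HISAT, Bowtie2 and hg19 are named, per the submitters' processing notes; the counting tool is not given in the sources used here. The authors deposited expected counts (estimated reads per gene, not normalized) and FPKM (scaled to length and library total), per the file headers. Genes not listed in a library were taken as 0 there, and the transcript length is the mean of the deposited lengths.

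Expected counts were rounded to whole numbers. The test was edgeR 4.0.16 in R 4.3.3: filterByExpr with its defaults, TMM factors, quasi-likelihood F test on group, Benjamini-Hochberg adjusted over 14016 genes, threshold 0.05, with 1 residual degree of freedom. The spread of each gene was moderated towards that of all genes tested (median prior degrees of freedom 45.7). The control has no replicate and was assumed to vary like the other libraries. SE values come from the F statistic, ratios per library have exact 95% binomial intervals, and log2 ratios per library use a prior count of 2. The chi-square per gene between libraries 1 and 2 was 5.46, above sampling noise, and they were kept apart. Trends on transcript length and on GC content (GENCODE transcripts, 98.8% of tested genes) were removed per library as loess offsets with a span of 0.5. The fit was tested on simulated data.

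The 8 genes and all gene lists were chosen with earlier results of these data known. Named from the lists were up to 6 genes each way that passed, ranked by the less changed library, the nearest pattern to each of the 8 (that of TJP1 is not reported here), and the 3 most abundant. Other genes of those lists that are named, such as CLDN11, EPCAM, GRHL2, CTNNA1 and CTNNB1, were chosen after their values were seen. Alternatives were other scalings, filters and prior counts, DESeq2 1.42.0, limma 3.58.1 on log2 FPKM with a pseudocount of 1 or 0.1, the trends, and leaving out each labelled library. Promoter windows came from RefSeq.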

Additional observations from a re-analysis of the deposited data

How the results depend on the processing

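Across all genes the 4352 calls became 1897 without a filter on low counts, 2479 after removal of the length trend, 1995 after removal of length and GC trends, 1169 with DESeq2, and 1623, 1068 and 0 with limma on log2 FPKM (pseudocount 1, pseudocount 0.1, and pseudocount 1 with no filter, the last with 4568 genes at an unadjusted p under 0.05). In place of 2 of the 8 tight junction genes, 1 passed without a filter, after removal of GC alone or of length and GC, with DESeq2 and with limma at a pseudocount of 1, and 0 passed with limma at a pseudocount of 0.1 (3 unadjusted) or unfiltered (1 unadjusted). DESeq2 gave no adjusted p for CLDN7 and MARVELD2. Of the other tight junction genes 9 passed without a filter, 7 with DESeq2 and 6, 3 and 0 in the same limma settings in place of 19, the last with 20 unadjusted. Of the regulators 2, 2, 2 and 0 passed without a filter and in those limma settings in place of 4, the last with 3 unadjusted. Signs turned for TJP1 with the length trend or both removed (-0.11 in each) and for KMT2D (-0.59 and -0.40). The fits with GC also tested fewer genes (13843, those with a GC value, in place of 14016), and the cause of these shifts was not tested. The adjusted p of CLDN4 ran from 3.53e-05 to 0.225 over the alternatives and that of CLDN7 from 0.00634 to 0.341. Leaving out a labelled library leaves 1 against 1 and no test: CLDN4 was then at -1.10 or -0.75, CLDN7 at -0.92 or -2.14, and CLDN1 at -0.77 without library 1 but 0.09 without library 2. No paired analysis was possible because the control has a lone library with no number in its label. At 9 to 49 counts for CLDN7 and 18 to 34 for MARVELD2, depth limits what can be told of either.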
